A study of Homo sapiens with 6 samples.

Results

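The 10 genes described here are GATA2, GATA3, TFAP2A, TFAP2B, TFAP2C, HAND1, ISL1, TBX3, VGLL1 and CDX2, taken by symbol from the 58735 genes of the deposited count table. Their human Ensembl identifiers were matched to symbols in GENCODE release 29 on GRCh38, and all 10 were found. RNA was sequenced from H9 cells, an established line of human embryonic stem cells (hESCs), at day 9 of a differentiation toward the third pharyngeal pouch endoderm (3PPE). The cells had received Activin A at 100 ng/ml and WNT3A at 50 ng/ml, and from day 4 retinoic acid at 1 µM, the TGF-beta receptor inhibitor SB431542 at 10 µM, BMP4 at 20 ng/ml and the Wnt secretion inhibitor IWP2 at 2.5 µM. At day 7, 3 cultures labelled siControl received a negative control siRNA and 3 labelled siHOXA3 received an siRNA against HOXA3. Both were given with Lipofectamine, so the controls carry the transfection too. Some hours later, by the study's methods, Opti-MEM took the place of the differentiation medium, and harvest was at day 9. The labels give wild type for the siControl group and HOXA3 knockdown for the siHOXA3 group. They call the samples triplicates without saying whether these were separate differentiations, while the study speaks of independent biological repeats, so the p-values measure the spread between these samples as labelled. All 6 libraries came from a single cell line.

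Most of these genes encode transcription factors that early extraembryonic epithelia share. GATA2 and GATA3 are zinc finger factors and TFAP2A and TFAP2C are AP-2 factors, and they act together in the trophoblast, the outer layer from which the placenta forms. Amnion, the thin epithelium around the embryo, also carries GATA3, TFAP2A, ISL1 and HAND1, and human pluripotent cells exposed to BMP4 can take on either kind of program. VGLL1 is not a DNA-binding factor but a cofactor of the TEAD factors and a marker of human cytotrophoblast, TBX3 is a T-box repressor, TFAP2B is an AP-2 factor best known from neural crest and kidney, and CDX2 is the caudal homeobox factor of trophectoderm and hindgut. The genes were selected on their levels in these 6 libraries, with the values of the siHOXA3 and siControl columns already known, and so were the lists around them, so their levels and fold changes are given as a description.

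The libraries held between 14117150 and 15282307 counts. Levels between libraries are given as CPM, the count scaled to the normalized library size. A gene with 0 counts could have had up to 3, which equals 0.196 to 0.211 CPM here and covers counting error only. HOXA3, the targeted gene, had 248, 240 and 236 counts in siControl replicates 1, 2 and 3 and 159, 199 and 220 counts in siHOXA3 replicates 1, 2 and 3. Its level was 16.0 ± 0.601 CPM (SD, n = 3) in siControl and 13.2 ± 2.27 CPM (SD, n = 3) in siHOXA3. The log2 fold change of HOXA3 was -0.27 with a standard error of 0.157 (adjusted p = 0.828 by edgeR's quasi-likelihood test with Benjamini-Hochberg adjustment). The study reported significantly reduced HOXA3 after the siRNA by qRT-PCR and Western blot, with weaker immunofluorescence. In these libraries the groups overlapped, because the library labelled siHOXA3 replicate 3 lay above siControl replicate 3 in CPM. Each comparison below is therefore between libraries labelled siHOXA3 and siControl. The library labelled siHOXA3 replicate 2 stood apart from the others of its group, with a chi-square per degree of freedom over genes of 27.1 and 29.8 against replicates 1 and 3, which differed from each other by 5.31. In that library the deviation of a gene from its mean over all libraries went down with transcript length (Spearman correlation across 16561 genes of -0.391), and in the other 5 libraries the correlation lay between 0.074 and 0.154. Genes within a library are not independent replicates.

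HAND1, GATA3, VGLL1 and TFAP2A were the highest of the 10 genes and CDX2 the lowest. HAND1, a basic helix-loop-helix factor of amnion, trophoblast and early mesoderm, had the highest level per length, in TPM (the count divided by the summed exon length and scaled to a common total, computed here). It had 745, 713 and 818 TPM in siControl replicates 1, 2 and 3 and 795, 789.7 and 777 TPM in siHOXA3 replicates 1, 2 and 3. Its mean of 773 TPM over the 6 libraries ranked 104 among the 16561 genes tested. GATA3 followed with a mean of 349 TPM and ranked 308, and the lowest HAND1 library (713 TPM) lay above the highest GATA3 library (380.2 TPM). VGLL1 had a mean of 160.03 TPM, TFAP2A 120.5 TPM, TBX3 87.8 TPM, GATA2 62.7 TPM and TFAP2C 56.8 TPM. These 5 genes lay between percentiles 81.0 and 94.9 of the genes tested. ISL1, with 17.1 TPM, lay near the middle of the genes tested, TFAP2B had 8.18 TPM and CDX2 0.305 TPM. Of the 9 neighbouring pairs in this order, 6 did not overlap over the 6 libraries, and VGLL1 with TFAP2A, TBX3 with GATA2, and GATA2 with TFAP2C overlapped.

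**Figure D1:**
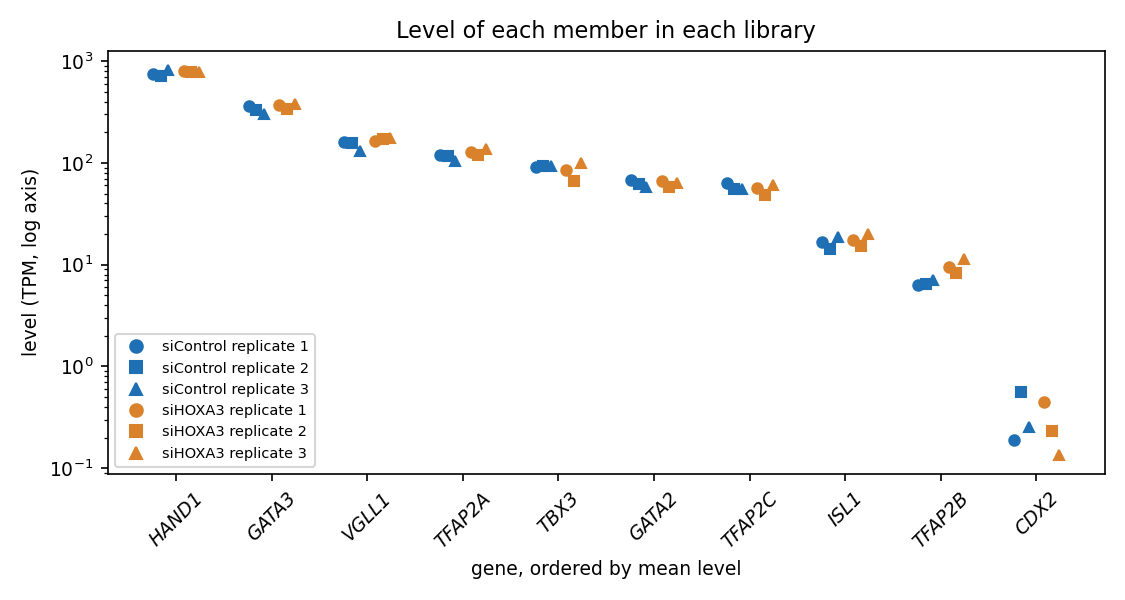
Level of each of the 10 genes in TPM on a log axis, with 1 point for each of the 3 siControl and 3 siHOXA3 libraries. HAND1 sits highest, between 713 and 818 TPM, and CDX2 lowest, between 0.136 and 0.565 TPM.

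The sequences just before the first exon are shown for HAND1, the highest of the genes, and for GATA3, TFAP2A, TFAP2B and VGLL1, the 4 whose CPM values did not overlap between the groups. They are RefSeq promoter sequences on GRCh38.p14, up to 160 bases long, read on the strand of the gene with the first exon beginning just after the last base. For GATA3 that exon start is the RefSeq one, and the GENCODE gene begins further on, at 8045378. The capitals mark matches on either strand to GATAA (the core of GATA binding), GCCNNNGGC (AP-2), CATTCC (TEAD) and TGATNNAT (PBX with HOX).
HAND1 (chr5:154478265-154478424, minus strand): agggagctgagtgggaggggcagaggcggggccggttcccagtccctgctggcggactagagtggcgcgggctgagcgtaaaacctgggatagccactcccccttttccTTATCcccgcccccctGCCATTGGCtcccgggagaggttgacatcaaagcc
GATA3 (chr10:8045173-8045332, plus strand): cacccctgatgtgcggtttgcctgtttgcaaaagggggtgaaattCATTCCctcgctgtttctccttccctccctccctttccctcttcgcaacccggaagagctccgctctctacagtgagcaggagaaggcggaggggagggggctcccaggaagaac
TFAP2A (chr6:10419660-10419819, minus strand): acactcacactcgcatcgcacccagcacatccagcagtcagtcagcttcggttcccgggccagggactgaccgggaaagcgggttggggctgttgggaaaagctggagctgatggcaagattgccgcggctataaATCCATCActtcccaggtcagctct
TFAP2B (chr6:50818621-50818722, plus strand): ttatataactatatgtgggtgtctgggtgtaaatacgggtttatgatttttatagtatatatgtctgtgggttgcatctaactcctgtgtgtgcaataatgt
VGLL1 (chrX:136531992-136532151, plus strand): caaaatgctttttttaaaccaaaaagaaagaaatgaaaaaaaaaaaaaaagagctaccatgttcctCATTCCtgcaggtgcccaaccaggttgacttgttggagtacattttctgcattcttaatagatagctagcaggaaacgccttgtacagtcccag

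HAND1 has a GATAA match 51 bases and an AP-2 match 35 bases before its first exon. VGLL1, the TEAD cofactor, has a TEAD match 94 bases before its own first exon. GATA3 has one 115 bases before its RefSeq start. TFAP2A has its PBX with HOX match 25 bases before its first exon. In the full windows of 300 bases (250 before and 50 after a start), GATAA was present in 4 of the 8 genes with a window (GATA3, HAND1, ISL1 and CDX2) and in 22.7% of the 35116 promoter windows. The AP-2 letters were present in 4 of 8 (GATA2, GATA3, HAND1 and CDX2) and in 23.2% of all windows, and the TEAD letters in 2 of 8 (GATA3 and VGLL1) and in 14.03% of all windows. GGTGTG, part of the T-box site, was present in GATA2, GATA3 and TFAP2B (16.8% of all windows), and CANNTG, the E-box that HAND factors and their partners bind among others, in 6 of 8 (68.7%). TTTATNG, a caudal site, was present in TFAP2A, TFAP2B and CDX2 (9.73%), TGATNNAT in TFAP2A and TFAP2B (7.40%), GGCGCC, which SMAD1 and SMAD5 bind, in GATA2 and GATA3 (19.2%), and TAATTA, a homeodomain site, in 0 of 8 (4.84%). Some genes have several windows, 15 in all, which gives them more places for a match. Counted by window, as the shares of all windows are, GATAA was in 4 of 15, the AP-2 letters in 7, GGTGTG in 5, CANNTG in 7, CATTCC in 2, TTTATNG in 3, TGATNNAT in 2, GGCGCC in 4 and TAATTA in 0. The motif letters can overlap one another. A match describes the letters and is not a measured binding site.

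Between the groups, GATA3, TFAP2A, TFAP2B and VGLL1 had higher CPM in all 3 siHOXA3 libraries than in all 3 siControl libraries, and the other 5 genes tested overlapped. In TPM the groups of GATA3 overlapped, with siControl replicate 1 at 365 TPM and siHOXA3 replicate 2 at 339 TPM. Of the genes tested, 6.38% did not overlap with siHOXA3 higher and 6.89% with siHOXA3 lower, against 4 and 0 of the 9 genes tested here. These 9 had passed a filter on low counts that CDX2 did not pass, and they were chosen with these values known. Unadjusted p-values were under 0.05 for TFAP2A and TFAP2B, both higher in siHOXA3, beside 3.79% of the genes tested with siHOXA3 higher and 6.36% in either direction. None of the 9 had an adjusted p under 0.05 by edgeR or by DESeq2, where 0.00604% (1 gene) and 0.26% (38 genes) of the genes tested did. The median log2 fold change was 0.13 over the 9 genes and 0.002 over all genes tested. In bulk RNA, fewer cells of a type and less RNA per cell cannot be told apart.

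**Figure D2:**
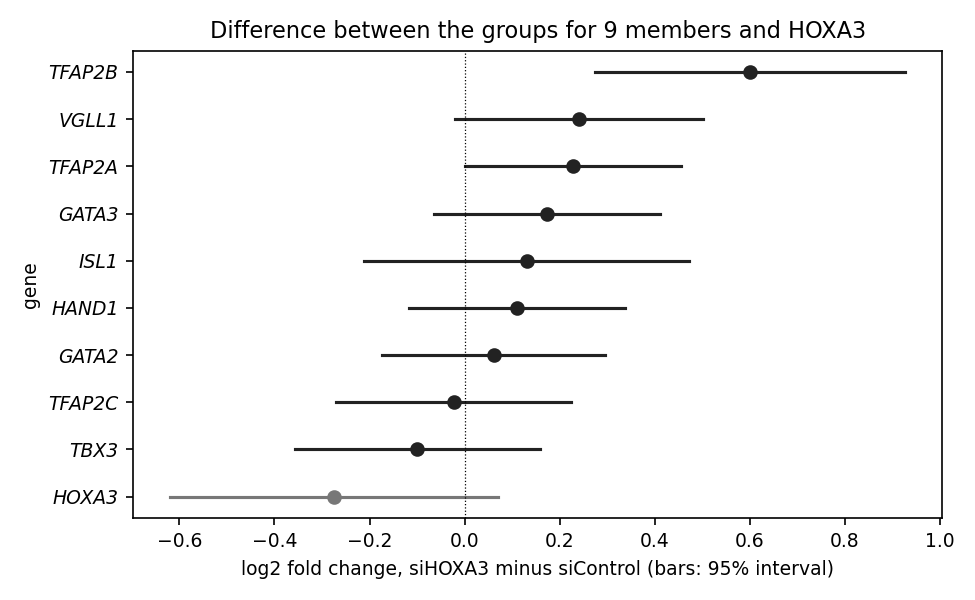
Log2 fold change of siHOXA3 against siControl for the 9 genes tested and for HOXA3 (grey), with bars for the 95% confidence interval of the edgeR fit. HOXA3, the targeted gene, lies lowest at -0.27. TFAP2B lies highest at 0.60, and the intervals of TFAP2A and TFAP2B alone do not cross below 0.

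The AP-2 factors bind as dimers to the same GC-rich sites, and 3 of the 5 family genes are among the 10. TFAP2A (ENSG00000137203, chromosome 6, minus strand, 10393186 to 10419659) had 3742, 3733 and 3250 counts in siControl replicates 1, 2 and 3 and 3952, 4121 and 4074 counts in siHOXA3 replicates 1, 2 and 3. The levels were 236 ± 20.9 CPM (SD, n = 3) in siControl and 277 ± 8.13 CPM (SD, n = 3) in siHOXA3. The lowest control library was siControl replicate 3, and the groups did not overlap. The log2 fold change was 0.23 (standard error 0.104, 95% confidence interval 0.00 to 0.46, unadjusted p of 0.0496, adjusted p = 0.781 by edgeR). TFAP2A overlaps the antisense genes TFAP2A-AS2 and TFAP2A-AS1, which share 941 and 438 of its 8274 exon bases. TFAP2A-AS2 had 7.84 TPM in siControl and 8.45 TPM in siHOXA3 and TFAP2A-AS1 had 4.27 and 5.74 TPM, so the counts of the 3 genes are uncertain in the shared stretches because the counting is not stated to use strand.

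TFAP2B (ENSG00000008196, chromosome 6 from 50818723 to 50847613, plus strand) showed the widest relative difference of the 9 genes. It had 148, 155 and 164 counts in siControl replicates 1, 2 and 3, and 220, 214 and 250 counts in siHOXA3 replicates 1, 2 and 3. Every siHOXA3 library lay above every siControl library. The levels were 10.3 ± 0.408 CPM (SD, n = 3) and 15.6 ± 1.74 CPM (SD, n = 3), a log2 fold change of 0.60 (standard error 0.149, 95% confidence interval 0.28 to 0.93, unadjusted p of 0.00186). The adjusted p was 0.486 by edgeR and 0.140 by DESeq2, and 0.0467 by limma-voom with sample quality weights, the alternative in which TFAP2B passed. TFAP2B is best known from neural crest, so the 10 neural crest markers were set beside it. Their summed level ranged from 94.2 to 101 TPM in siControl and from 90.1 to 109.9 TPM in siHOXA3. FOXD3 and PAX7 had at most 3 counts in every library and SOX10 was too low to be tested, so 7 were tested. NGFR was higher in all siHOXA3 libraries, with a log2 fold change of 0.87 and an unadjusted p of 0.00840 (adjusted p = 0.653), and ETS1 was lower in all of them, with a log2 fold change of -0.23 and an unadjusted p of 0.0481 (adjusted p = 0.777). The part of these markers in the TFAP2B difference was not tested.

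TFAP2C (ENSG00000087510, chromosome 20 from 56629302 to 56639283, plus strand), the AP-2 factor of trophoblast, germ cells and naive pluripotent cells, had 729, 644 and 630 counts in siControl and 636, 616 and 654 counts in siHOXA3. Its groups overlapped, at 44.2 ± 4.09 CPM and 43.5 ± 2.53 CPM (SD, n = 3 each), with a log2 fold change of -0.02 (95% confidence interval -0.27 to 0.23, adjusted p = 0.976 by edgeR). Per length, TFAP2A held 60.8% ± 1.82 and TFAP2C 31.3% ± 1.28 of the summed AP-2 level in siControl (SD, n = 3 each). In siHOXA3 TFAP2A held 64.2% ± 0.671 and TFAP2C 27.8% ± 0.891 (SD, n = 3 each). TFAP2B held 3.58% ± 0.414 in siControl and 4.86% ± 0.362 in siHOXA3, and TFAP2E 4.36% and 3.16%. The shares of TFAP2A and TFAP2B were higher, and those of TFAP2C lower, in every siHOXA3 library than in every siControl library, and those of TFAP2E were lower in every siHOXA3 library too. No test was made of the shares, which are parts of 1 total and move together. They also depend on the length used. With all exons, TFAP2A had 120.5 TPM and TFAP2C 56.8 TPM over the 6 libraries. With the longest annotated transcript, TFAP2A had 198 TPM and TFAP2C 45.3 TPM. TFAP2D had 0 counts in all 6 libraries.

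**Figure D3:**
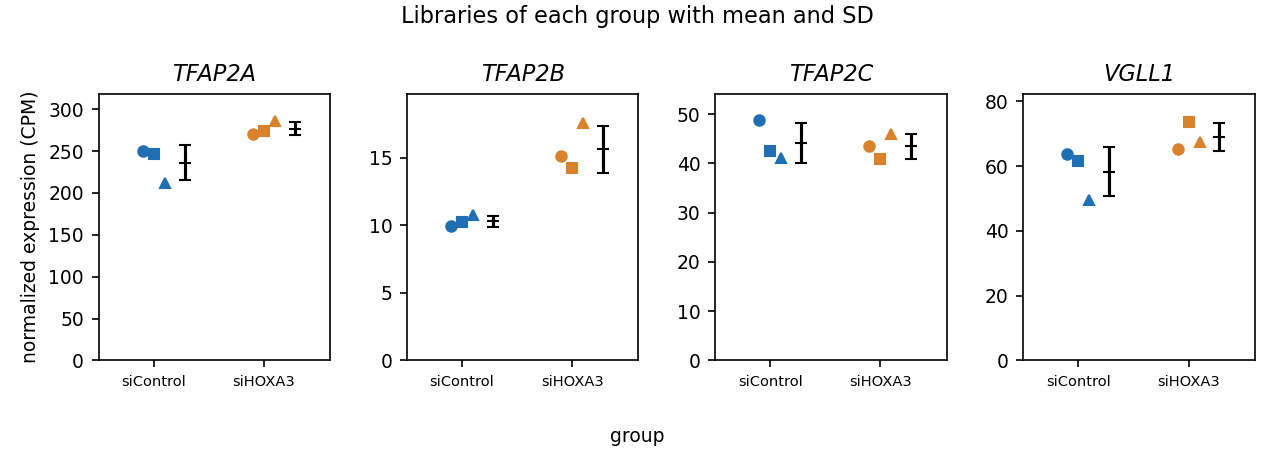
CPM of TFAP2A, TFAP2B, TFAP2C and VGLL1 in each library, with the mean and SD of the 3 libraries of each group. The siHOXA3 points lie above all siControl points for TFAP2A, TFAP2B and VGLL1, and overlap them for TFAP2C.

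Of the 7 cofactors and inhibitors of AP-2 proteins, 6 could be tested. CITED2 (294 TPM over the 6 libraries), a coactivator of AP-2 proteins, and YEATS4 (79.3 TPM) were the highest, with log2 fold changes of 0.14 each (adjusted p of 0.856 and 0.910 by edgeR). Of the 6, 5 had a positive log2 fold change, beside 50.4% of all genes tested. In this list 0 had an adjusted or unadjusted p under 0.05, and the median was 0.14. KCTD1 lay higher and KCTD15 lower in all siHOXA3 libraries, with log2 fold changes of 0.18 and -0.11 (unadjusted p of 0.158 and 0.254, adjusted p of 0.839 and 0.859). Both are BTB-domain proteins that repress AP-2 activity.

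The GATA factors were led by GATA3 (ENSG00000107485, chromosome 10 from 8045378 to 8075203, plus strand). It had 4786, 4435 and 3954 counts in siControl and 4822, 4898 and 4653 counts in siHOXA3 replicates 1, 2 and 3. The levels were 290.4 ± 31.1 CPM (SD, n = 3) in siControl and 327 ± 2.89 CPM (SD, n = 3) in siHOXA3. The siControl libraries spread from 258 to 320.5 CPM and the siHOXA3 libraries from 325 to 331 CPM, so the groups did not overlap but siControl replicate 1 lay close to the siHOXA3 values. The log2 fold change was 0.17 (standard error 0.108, 95% confidence interval -0.06 to 0.41, unadjusted p of 0.137, adjusted p = 0.829 by edgeR). GATA3-AS1, transcribed from the opposite strand within the GATA3 span with 0 shared exon bases, had 200, 161 and 176 counts in siControl and 205, 318 and 226 counts in siHOXA3. Its level was 19.8 TPM in siControl and 27.2 TPM in siHOXA3, with the highest count in siHOXA3 replicate 2 (log2 fold change 0.52, standard error 0.179, adjusted p = 0.710 by edgeR). AL390294.1, a neighbour on the strand of GATA3, had a single count.

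GATA2 (ENSG00000179348, chromosome 3 from 128479427 to 128493185, minus strand), the second GATA factor of trophoblast, had 1161, 1058 and 972 counts in siControl and 1124, 1084 and 1014 counts in siHOXA3. Its groups overlapped at 70.3 ± 7.12 CPM and 73.4 ± 3.20 CPM (SD, n = 3 each), with a log2 fold change of 0.06 (95% confidence interval -0.17 to 0.30, adjusted p = 0.930 by edgeR). Both GATA factors had their lowest control value in siControl replicate 3. Of the summed GATA level per length, GATA3 held 72.8% ± 1.604 in siControl and 74.97% ± 0.485 in siHOXA3, and GATA2 held 13.6% ± 0.241 and 12.9% ± 0.415 (SD, n = 3 each). GATA6, which endoderm and amnion share, held 12.1% and 11.0%. GATA6 had 54.4 TPM over the 6 libraries with a log2 fold change of 0.01, GATA5 4.90 TPM with a log2 fold change of -0.38 (adjusted p of 0.990 and 0.861), and GATA1 and GATA4 were too low to be tested. GATA2-AS1, on the opposite strand, had 40.9 TPM in siControl and 39.1 TPM in siHOXA3 and shared 0 exon bases with GATA2. Among 7 cofactors of GATA proteins, 3 were tested, and ZFPM1 (11.4 TPM) was higher in all siHOXA3 libraries, with a log2 fold change of 0.55, an unadjusted p of 0.00606 and an adjusted p of 0.590. LMO4, the highest of them at 70.5 TPM, had a log2 fold change of 0.14 (adjusted p = 0.844).

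**Figure D4:**
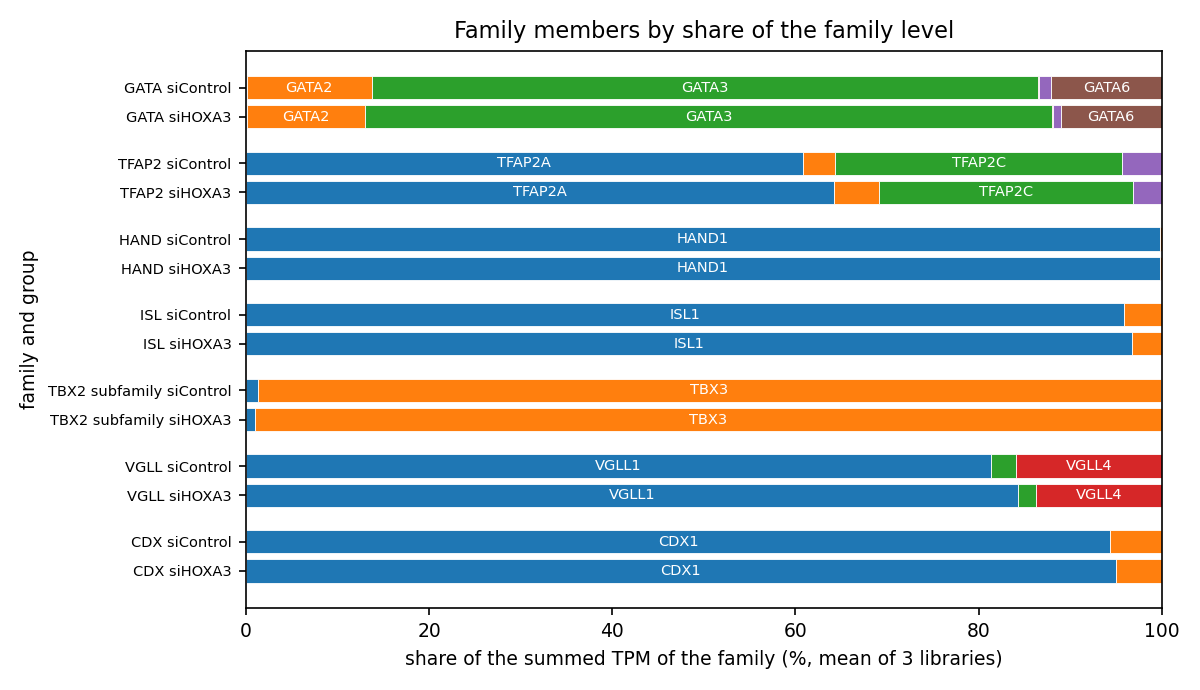
Share of each family's summed TPM held by each gene in the 3 siControl and 3 siHOXA3 libraries, in percent. GATA3, TFAP2A, HAND1, ISL1, TBX3 and VGLL1 hold the largest share of their families in every library, and CDX1 holds that of the CDX family. Thin segments without a name are the remaining paralogs.

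VGLL1 (ENSG00000102243, chromosome X from 136532152 to 136556807, plus strand) had 951, 933 and 760 counts in siControl and 954, 1111 and 961 counts in siHOXA3 replicates 1, 2 and 3. The levels were 58.3 ± 7.54 CPM (SD, n = 3) in siControl and 68.9 ± 4.32 CPM (SD, n = 3) in siHOXA3. The groups did not overlap, although siHOXA3 replicate 1 (65.4 CPM) lay just above siControl replicate 1 (63.7 CPM). The log2 fold change was 0.24 (standard error 0.118, 95% confidence interval -0.02 to 0.50, unadjusted p of 0.0661, adjusted p = 0.788 by edgeR). VGLL1 held 81.3% of the summed VGLL level in siControl and 84.3% in siHOXA3, VGLL4 (28.4 TPM) and VGLL3 (4.49 TPM) held most of the rest, and VGLL2 had 0 counts. The TEAD factors that VGLL1 binds, and the coactivators YAP1 and WWTR1 that bind the same factors, were all tested. YAP1 had 239.8 TPM and TEAD3 185 TPM, with log2 fold changes of -0.09 and -0.15 (adjusted p of 0.898 and 0.867). TEAD2 (88.1 TPM) was higher in all siHOXA3 libraries with a log2 fold change of 0.35, an unadjusted p of 0.00714 and an adjusted p of 0.623. Of these 6 genes, 3 had positive and 3 negative log2 fold changes. MIR934, a microRNA gene within VGLL1, had 0 counts in all libraries.

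HAND1 (ENSG00000113196, chromosome 5, minus strand, 154474972 to 154478264) had 4942, 4783 and 5376 counts in siControl and 5193, 5765 and 4811 counts in siHOXA3 replicates 1, 2 and 3. Its groups overlapped at 333 ± 18.0 CPM and 359 ± 22.4 CPM (SD, n = 3 each), with a log2 fold change of 0.11 (95% confidence interval -0.12 to 0.34, adjusted p = 0.877 by edgeR). Its paralog HAND2, a factor of cardiac and limb mesoderm, had 1.63 TPM, so HAND1 held between 99.7% and 99.9% of the HAND level per length. Of the E proteins with which HAND1 pairs, TCF3 (89.2 TPM) was higher in all siHOXA3 libraries, with a log2 fold change of 0.27, an unadjusted p of 0.0185 and an adjusted p of 0.724. TCF12 (54.0 TPM) had a log2 fold change of -0.14 (adjusted p = 0.843).

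ISL1 (ENSG00000016082, chromosome 5 from 51383391 to 51394738, plus strand), a LIM homeodomain factor of amnion, cardiac progenitors and motor neurons, had 182, 159 and 206 counts in siControl and 191, 183 and 204 counts in siHOXA3. The groups overlapped at 12.05 ± 1.49 CPM and 13.2 ± 1.096 CPM (SD, n = 3 each), with a log2 fold change of 0.13 (95% confidence interval -0.21 to 0.47, adjusted p = 0.9002 by edgeR). It held 95.9% of the ISL level in siControl and 96.7% in siHOXA3, the rest being ISL2. LDB1 (145 TPM), the adaptor that joins LIM homeodomain factors, had a log2 fold change of 0.04, and LHX4 (5.11 TPM) one of -0.07 (adjusted p of 0.959 and 0.969). Of the 5 partners of ISL1 4 were tested, and 3 of the 4 had a positive log2 fold change, beside 50.4% of all genes tested. PHOX2A, a homeodomain factor of autonomic neurons, was higher in all siHOXA3 libraries at 8 to 11 counts in siControl and 17 to 31 in siHOXA3, with a log2 fold change of 1.25, an unadjusted p of 0.0132 and an adjusted p of 0.710. AC010478.1, on the opposite strand beside the ISL1 start, had 2.92 TPM in siControl and 3.08 TPM in siHOXA3.

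TBX3 (ENSG00000135111, chromosome 12 from 114670254 to 114684164, minus strand) had a wider spread in siHOXA3 than in siControl. It had 2057, 2149 and 2079 counts in siControl, and 1910, 1646 and 2101 counts in siHOXA3 replicates 1, 2 and 3. The levels were 138 ± 2.98 CPM (SD, n = 3) and 129 ± 19.2 CPM (SD, n = 3), with a log2 fold change of -0.10 (95% confidence interval -0.36 to 0.16, adjusted p = 0.899 by edgeR). The low value was in siHOXA3 replicate 2, the library that stood apart, and without it the log2 fold change was 0.01. TBX3 held 98.7% of the level of the TBX2 subfamily in siControl and 98.98% in siHOXA3. TBX2 was at 1.00 TPM, and TBX4 and TBX5 had at most 3 counts in every library.

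CDX2 (ENSG00000165556, chromosome 13, minus strand, 27962137 to 27971139) had 3, 9 and 4 counts in siControl and 7, 4 and 2 counts in siHOXA3, too few for a fit. The sums were 16 counts in siControl, a level of 0.352 CPM with an exact Poisson interval of 0.201 to 0.572, and 13 counts in siHOXA3, a level of 0.296 CPM with an interval of 0.158 to 0.506, which cover counting error only. A difference between the groups was not detectable at this depth. CDX1, its paralog, had 5.45 TPM and held 94.4% of the CDX level in siControl and 94.99% in siHOXA3, and CDX4 had 0 counts.

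Over the 6 libraries, GATA3, TFAP2A and VGLL1 varied most alike, with Pearson correlations of log2 CPM of 0.94 between GATA3 and TFAP2A and 0.92 for each of the other pairs. HAND1 and TBX3 varied in opposite directions, with a correlation of -0.85. These 6 libraries share their 2 groups and the library that stood apart, so the correlations are descriptions. Among the genes most like the mean profile of the 9 genes were CFAP57 (Pearson correlation 0.991), LINC00937 (0.989), PPP1R9B (0.985) and AC004951.1 (0.984), of 16552 genes compared. A correlation over 0.9 was reached by 182 of those genes.

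BMP4 had been added to the differentiation medium, whose place Opti-MEM took after the transfection. The 30 genes of the BMP pathway were read in the same libraries, since BMP signals induce GATA3, TFAP2A and HAND1 in human pluripotent cells. Of them 29 were tested, 13 with positive and 16 with negative log2 fold changes, the median was -0.03, and 0 had an adjusted p under 0.05 by edgeR or DESeq2. The targets ID1 (1119 TPM) and ID3 (316 TPM), which encode inhibitors of helix-loop-helix factors, were highest, with log2 fold changes of -0.07 and 0.12 (adjusted p of 0.948 and 0.918). BMP7 was higher and SMAD5, a signal transducer of BMP receptors, lower in all siHOXA3 libraries, at log2 fold changes of 0.36 and -0.40 (unadjusted p of 0.0336 and 0.00193, adjusted p of 0.741 and 0.486).

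Marker lists of the cell types that carry these factors were described by the same fit. Of the 20 amnion markers, 19 were tested, with a median level of 122 TPM over the list, and their summed level ranged from 6681 to 7349 TPM in siControl and from 7063 to 7694 TPM in siHOXA3. IGFBP3 (2867 TPM) and GABRP (795 TPM) were the highest, with log2 fold changes of 0.23 and -0.03 (adjusted p of 0.806 and 0.972). Of the 20, 18 had more than 1 TPM and 15 more than 10 TPM. The lowest were KRT23 at 1.94 TPM, PRDM1 at 0.658 TPM and POSTN at 0.0716 TPM, which was too low to be tested. The 15 trophoblast progenitor markers had a median of 67.9 TPM and were led by KRT19 (2275 TPM) and KRT18 (1784 TPM), keratins of simple epithelia, with log2 fold changes of 0.24 and -0.01 (adjusted p of 0.829 and 0.994). ELF5 was too low to be tested, and SIGLEC6, PAGE4 and EOMES had at most 3 counts in every library. The 20 markers of syncytiotrophoblast and extravillous trophoblast had a median of 1.78 TPM, and 8 of them had at most 3 counts in every library, CGB3, CGB5 and CGB8 among them. In that list 8 of 11 tested genes had negative log2 fold changes with a median of -0.19, beside 49.6% of all genes tested with a negative value, and its summed level was lower in all siHOXA3 libraries (427 to 462 TPM) than in all siControl libraries (469 to 502 TPM). Without HSD3B1, a sum added after seeing the data, the other 19 genes summed to between 275 and 293 TPM in siControl. In siHOXA3 they summed to between 283 and 314 TPM, so the groups overlapped. That sum holds MMP2, which was higher in all siHOXA3 libraries (197 TPM in siControl and 229 TPM in siHOXA3). HSD3B1, CYP19A1 and ERVFRD-1 were lower in all of them. CYP19A1 had a log2 fold change of -0.67 and ERVFRD-1 one of -0.59 (adjusted p of 0.549 and 0.801 by edgeR). Of the 11 tested, 3 did not overlap with siHOXA3 lower and 1 with siHOXA3 higher, beside 6.89% and 6.38% of all genes tested. HSD3B1, a placental steroid enzyme at 173 TPM, had a log2 fold change of -0.44 (adjusted p = 0.458 by edgeR and 0.0315 by DESeq2), and MMP2 (213 TPM), a matrix protease, one of 0.27 (adjusted p = 0.720). The 12 surface ectoderm markers had a median of 22.1 TPM and were led by EPCAM (438 TPM) and CDH3 (409 TPM), with log2 fold changes of 0.23 and 0.00 (adjusted p of 0.828 and 0.995), while KRT5 and KRT14 had at most 3 counts in every library. In each of these 4 lists 0 genes had an adjusted p under 0.05 by edgeR, and HSD3B1 was the gene that did by DESeq2. Unadjusted p-values were under 0.05 for 3 of 19 amnion markers and 1 of 10 trophoblast progenitor markers tested, all higher in siHOXA3, for 1 higher and 2 lower of 11 syncytiotrophoblast and extravillous markers, and for 0 of 10 surface ectoderm markers, beside 3.79% of all genes tested higher and 6.36% in either direction.

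**Figure D5:**
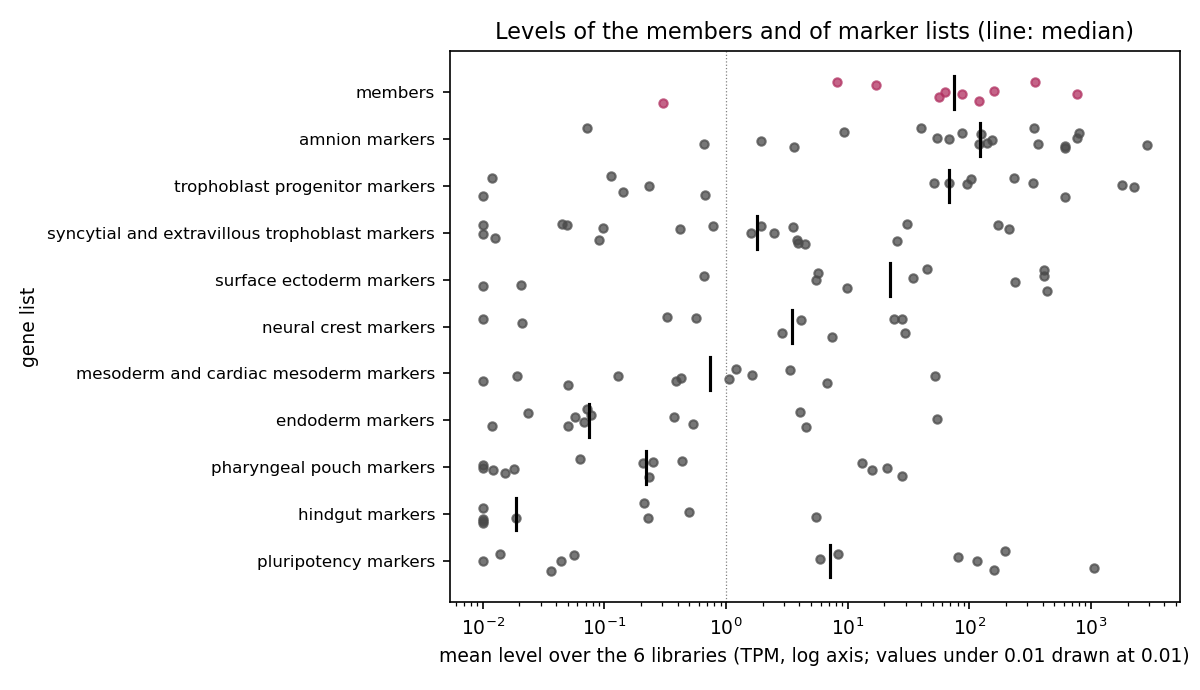
Level in TPM, on a log axis, of the genes of each marker list, averaged over the 6 libraries, with a line at each list's median. The 10 genes described here have a median of 75.2 TPM and the amnion markers of 122 TPM, while the endoderm markers have a median of 0.0750 TPM and the pharyngeal pouch markers of 0.220 TPM.

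Many, but not all, markers of the labelled cell type were near 0. EPCAM, an epithelial surface protein that the study also used as a marker, was at 438 TPM. Of the 12 endoderm markers, 6 had at most 3 counts in every library, SOX17, FOXA2 and HHEX among them, and 3 were tested. GATA6 (54.4 TPM), which amnion and trophoblast also carry, and CXCR4 (4.51 TPM) were the highest of the list. Of the 14 pharyngeal pouch markers, 6 had at most 3 counts in every library and 4 had more than 1 TPM. These 4 lay between 13.2 TPM (HOXA3) and 28.1 TPM (SIX4), with HOXB3 at 20.9 TPM. The log2 fold changes of CXCR4, SIX4 and HOXB3 were -0.41, -0.15 and 0.11 (adjusted p of 0.847, 0.851 and 0.893). The mesoderm list (median 0.738 TPM) was led by KDR at 51.8 TPM and TNNT2 at 6.71 TPM, with TBXT, NKX2-5 and FOXF1 at 3 counts or fewer in every library, and log2 fold changes of -0.20 and 0.08 (adjusted p of 0.854 and 0.935). The neural crest list (median 3.51 TPM) was led by SNAI2 at 29.7 TPM and SOX9 at 27.7 TPM, with log2 fold changes of 0.02 and 0.22 (adjusted p of 0.981 and 0.843). The hindgut list (median 0.0187 TPM) was led by CDX1. The pluripotency list (median 7.15 TPM) was led by LIN28A at 1063 TPM and ZFP42 at 196 TPM, with log2 fold changes of 0.13 and 0.11 (adjusted p of 0.856 and 0.875), and NANOG was too low to be tested. The 10 genes summed to between 1552 and 1635 TPM in siControl and between 1615 and 1726 TPM in siHOXA3.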

How the data were processed

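RNA was extracted from 3 siControl and 3 siHOXA3 samples, and single reads were sequenced. The methods name LM-Seq, while the labels also name a SMARTER kit. The authors deposited raw whole-number counts of reads per gene, without normalization. The submitters' processing notes list the mouse builds GRCm38 and mm10, although every gene identifier is human and was found in GENCODE release 29. The aligner, counting program, strand setting and handling of multiply matching reads are not given in the sources used here. Samples were grouped by their labels.

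The comparison was fitted by edgeR 4.0.16 in R 4.3.3 (filterByExpr, TMM, robust quasi-likelihood fit, two-sided test, Benjamini-Hochberg adjustment over the 16561 genes kept). CPM use the normalized library size. TPM were computed here from the deposited counts and the union of annotated exons in GENCODE. Standard errors are the log2 fold change divided by the square root of F. Correlations used log2 CPM with a prior count of 2. Each of the 6 library pairs within a group differed by more than sampling noise. Alternatives were DESeq2 1.42.0, limma 3.58.1 (voom with quality weights), upper-quartile and library-size scaling, other filters, a replicate block, other lengths and each library left out. A length and GC correction with mgcv 1.9.3 was added after seeing the data.

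The genes and lists were chosen with earlier results of these data known. Named are all 10 genes, HOXA3, the top 2 genes by mean TPM of each list and any with an adjusted p under 0.05, the 5 genes most alike, and genes overlapping or antisense within 5 kb. Other genes named, such as those that did not overlap between groups or had unadjusted p under 0.05, were chosen after their values were seen. The DNA sequences are from RefSeq (GRCh38.p14), where 8 of the 10 genes had a window. TFAP2C and TBX3 had no entry. Protein identity was not computed. Single values of some genes that this rule names or the lists hold are not reported here. The fit was tested on simulated counts.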

Additional observations from a re-analysis of the deposited data

How the results depend on the processing

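Of the 126 values of the 9 fold changes under 14 alternatives, 120 stayed on the same side of 0 and of the threshold, and those of HOXA3 did so under all 14. The exceptions were TFAP2C (0.021 with limma-voom and sample quality weights, 0.056 without siControl replicate 1 and 0.018 without siHOXA3 replicate 2), GATA2 (-0.0066 without siControl replicate 3) and TBX3 (0.0057 without siHOXA3 replicate 2), which turned direction near 0, and TFAP2B, which passed with limma-voom (0.63, adjusted p = 0.0467, against a range of 0.0467 to 0.997 over all alternatives). With each library left out in turn, the log2 fold changes ranged from 0.51 to 0.66 for TFAP2B, 0.16 to 0.27 for TFAP2A, 0.14 to 0.31 for VGLL1, 0.10 to 0.25 for GATA3, -0.0066 to 0.14 for GATA2, -0.070 to 0.056 for TFAP2C, -0.20 to 0.0057 for TBX3, 0.04 to 0.22 for ISL1, 0.06 to 0.15 for HAND1 and -0.40 to -0.15 for HOXA3. With the length and GC correction they were 0.66 for TFAP2B (adjusted p = 0.177 by edgeR), 0.25 for TFAP2A, 0.17 for GATA3 and 0.15 for VGLL1. ISL1 was at 0.10, GATA2 at 0.04, HAND1 at 0.02, TFAP2C at -0.03, TBX3 at -0.06 and HOXA3 at -0.27. The median over the 9 genes ranged from 0.073 without siControl replicate 2 to 0.18 without siHOXA3 replicate 2.

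Over all genes, 1 had an adjusted p under 0.05, against 38 by DESeq2, 100 with no filter and 67 with limma-voom. The count at an unadjusted p under 0.05 was 1053, against 1862 with no filter and 2215 with limma-voom. With each library left out in turn the counts were 1 to 24 and 643 to 1828, with 643 without siControl replicate 2, 671 without siControl replicate 3, and 24 and 1828 without siHOXA3 replicate 2. The causes were not tested. With the longest annotated transcript in place of all exons, TFAP2A ranked 3 and VGLL1 4 by level. With no division by length, TFAP2A ranked 3, TBX3 4, GATA2 5, VGLL1 6, TFAP2B 8 and ISL1 9. The ranks stayed in 72 of 80 cases.

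Deviations of same-numbered libraries from their group means correlated by 0.142, 0.104 and -0.059, so the samples share a number and are not shown to be paired. Blocking on that number gave 4 genes past the adjusted threshold, and no call of the 9 genes changed. siControl replicate 3 correlated best with siHOXA3 replicate 2, not with its own number. With 3 libraries a group, the 95% intervals of the 9 genes span differences that these data do not resolve, and CDX2 was at a depth where its groups could not be tested.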
